A study of Mus musculus with 2 samples.

Results

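Principal cells are the water- and sodium-reabsorbing cells of the kidney's collecting duct, and 355 cells of the 14565 in the data were taken as principal cells here. A cell was counted when it held 2 or more unique molecular identifiers (UMIs, each the tag of 1 captured transcript) of Aqp2 and at least 1 UMI of 2 or more of the 7 genes Aqp3, Aqp4, Fxyd4, Elf5, Hsd11b2, Scnn1b and Ptger1. It also had to lack Atp6v1g3 and Foxi1, which mark intercalated cells, and to have an authors' hybrid doublet score of 1 or less. The cells were thus selected on the UMIs of these 10 genes and on the score, so the levels of the genes in them are a description and carry no test. The cells come from C57BL/6J mouse kidneys taken whole at postnatal day 2, with 1 library per group: a control group, and a group labelled DM_Exp, called exposed here, from a study of maternal diabetes. The labels speak of pooled cells and of 1 kidney per group and name male mice, and they do not say how the diabetes was brought about. No allele or transgene is named for either group. With 1 library per group there is no replicate check: no p-value is given, and every 95% interval covers counting error only.

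Principal cells line the collecting duct together with the acid- and base-secreting intercalated cells. Vasopressin binds the receptor Avpr2 on their basolateral side, raises cAMP and moves the water channel Aqp2 to the luminal membrane, and water leaves through Aqp3 and Aqp4. Aldosterone acts on the epithelial sodium channel, built of Scnn1a, Scnn1b and Scnn1g, while Hsd11b2 inactivates glucocorticoids that would otherwise occupy its receptor. The duct grows from the ureteric bud, whose dividing tips express Ret, and its principal cells mature after birth.

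The promoter of Aqp2, the gene the rule turns on, is shown first, beside those of Elf5, a transcription factor of the duct, and of Aqp3, which does not hold the same letters. Each sequence is the 250 bases upstream of a RefSeq gene start in GRCm38.p6, read 5′ to 3′ on the gene's strand. Capitals mark GATAA or its complement TTATC, a form of the motif bound by GATA factors. Other forms, such as GATAG, were not marked or counted. Capitals also mark TGACG or its complement CGTCA, the core of the cAMP response element.
Aqp2, chr15:99578806-99579055, + strand: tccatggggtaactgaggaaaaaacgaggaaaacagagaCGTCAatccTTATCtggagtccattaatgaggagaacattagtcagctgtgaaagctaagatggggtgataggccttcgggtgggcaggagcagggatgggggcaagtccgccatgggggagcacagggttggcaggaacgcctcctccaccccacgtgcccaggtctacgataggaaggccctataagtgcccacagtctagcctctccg
Elf5, second start, chr2:103423818-103424067, + strand: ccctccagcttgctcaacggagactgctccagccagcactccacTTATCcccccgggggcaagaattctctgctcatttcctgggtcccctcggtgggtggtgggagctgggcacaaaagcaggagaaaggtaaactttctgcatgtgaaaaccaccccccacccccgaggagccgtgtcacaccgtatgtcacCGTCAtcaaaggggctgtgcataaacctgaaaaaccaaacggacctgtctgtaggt
Aqp3, chr4:41098184-41098433, - strand: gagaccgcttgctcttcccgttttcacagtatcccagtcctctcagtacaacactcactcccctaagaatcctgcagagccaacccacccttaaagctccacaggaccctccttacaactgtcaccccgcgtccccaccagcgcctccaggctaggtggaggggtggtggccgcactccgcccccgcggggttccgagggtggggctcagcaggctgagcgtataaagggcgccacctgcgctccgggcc
Aqp2 held CGTCA from base -211 and TTATC from base -202, counted back from the start, and Elf5 held TTATC from base -206 and CGTCA from base -56. Over all 32851 promoter windows of this length, 22.6% held GATAA or TTATC, 17.8% held TGACG or CGTCA and 2.90% held both motifs. Of the 18 principal cell and S100g or Calb1 genes looked up, 12 had a window, and besides Aqp2 and Elf5 the window of Kcnj1 held both. A match of letters is a description of the sequence and not a site, and these libraries do not measure binding. The Aqp2 window lies upstream of the gene except for its last base, and the Elf5 window lies within the gene, upstream of its second start, with 6 bases in an annotated exon. The window of the first Elf5 start, chr2:103411848-103412097, held neither of the marked motifs. Aqp2 itself spans chr15:99579055-99584547 in GENCODE M21.

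The control library gave 238 principal cells of 9071 (2.62%, 2.30 to 2.97) and the exposed library 117 of 5494 (2.13%, 1.76 to 2.55). The difference of exposed minus control was -0.494 percentage points (-0.989 to 0.0247, Newcombe interval), so it includes 0. A share of cells in a dissociated kidney depends on how well each cell type survives the procedure, and the number of principal cells in the kidney was not measured. Of 341 control and 173 exposed cells with 2 or more Aqp2 UMIs, 316 and 170 also held 2 of the supporting genes. The intercalated genes then removed 65 and 44 cells, and the doublet score 13 and 9. Just inside the Aqp2 threshold lay 13 control and 4 exposed cells with 2 UMIs, and just outside it 21 and 22 cells with 1 UMI that met every other condition.

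Principal cells had a median of 3758 UMIs and 1595 genes in the control and 4930 UMIs and 1967 genes in the exposed library. Their totals ran from 1027 to 21703 and from 1341 to 26376 UMIs. A median of 15.05% of a control and 10.49% of an exposed principal cell's UMIs came from the mitochondrial genome, against 6.87% and 5.19% in the other cells. Over 25% were mitochondrial in 63 control (26.5%) and 21 exposed principal cells (17.9%). The libraries share 14 cell barcodes, none of them among principal cells. The comparisons rest on the 8930 genes listed for both libraries, which held 1032352 and 645905 UMIs of principal cells. Levels are given as counts scaled to a total of 1e+06 (CPM) of these summed UMIs.

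The label was set beside principal cell genes and beside cells gated for other types. Aqp2 and Fxyd4, given first, took part in choosing the principal cells, so their high levels there check nothing. Aqp2 stood at 8463 CPM in control and 7409.8 in exposed principal cells. Cells gated as ureteric bud tip (94 and 58 cells) held Ret and 2 other tip genes, lacked Atp6v1g3 and Foxi1, and had under 2 Aqp2 UMIs. Aqp2 stood at 3.83 and 5.40 CPM in them, a low level that this gate fixed in advance. In endothelial cells (668 and 464), gated without regard to Aqp2, it stood at 11.1 and 3.28 CPM. As a measure of free RNA, Aqp2 UMIs appeared in 3.59% of control and 1.29% of exposed endothelial cells, which should lack the gene, at a median of 2604.5 and 3211.5 UMIs per cell. Cells gated as intercalated by 2 of 6 intercalated cell genes, with no limit on Aqp2 (246 and 138 cells) held 1399 and 1720.4 CPM, and 4 control cells passed both gates. Fxyd4, a regulator of the sodium pump in the duct, stood at 2231 and 1892 CPM in principal and at 426 and 544 CPM in intercalated cells.

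Principal cell genes that the rule did not use were also present. Avpr2 stood at 107 and 109.9 CPM in principal cells against 24.2 and 31.5 CPM in intercalated cells and 3.01 and 3.05 CPM in all other cells pooled. Scnn1g, the gamma subunit of the sodium channel, stood at 199 and 232 against 115 and 155 CPM in intercalated cells and 10.6 and 11.3 CPM in all others pooled. Krt18, a keratin of simple epithelia, stood at 1095 and 1276 against 564 and 665 CPM in tip cells, 352 and 380.2 CPM in intercalated cells and 133 and 126 CPM in all others pooled. Gata3, needed for duct growth, was not restricted to these cells: it stood at 340.0 and 382 CPM in principal and at 222 and 249 CPM in tip cells. Tfcp2l1, a factor of collecting duct cell identity, was lower here (418 and 362 CPM) than in intercalated cells (1009.5 and 1102 CPM). Kcnj1, the potassium channel ROMK of mature principal cells, had 8 and 19 UMIs in all, and 94.7% of the exposed UMIs lay in 5 cells. A UMI of Kcnj1 was found in 7 control and 6 exposed principal cells.

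**Figure D1:**
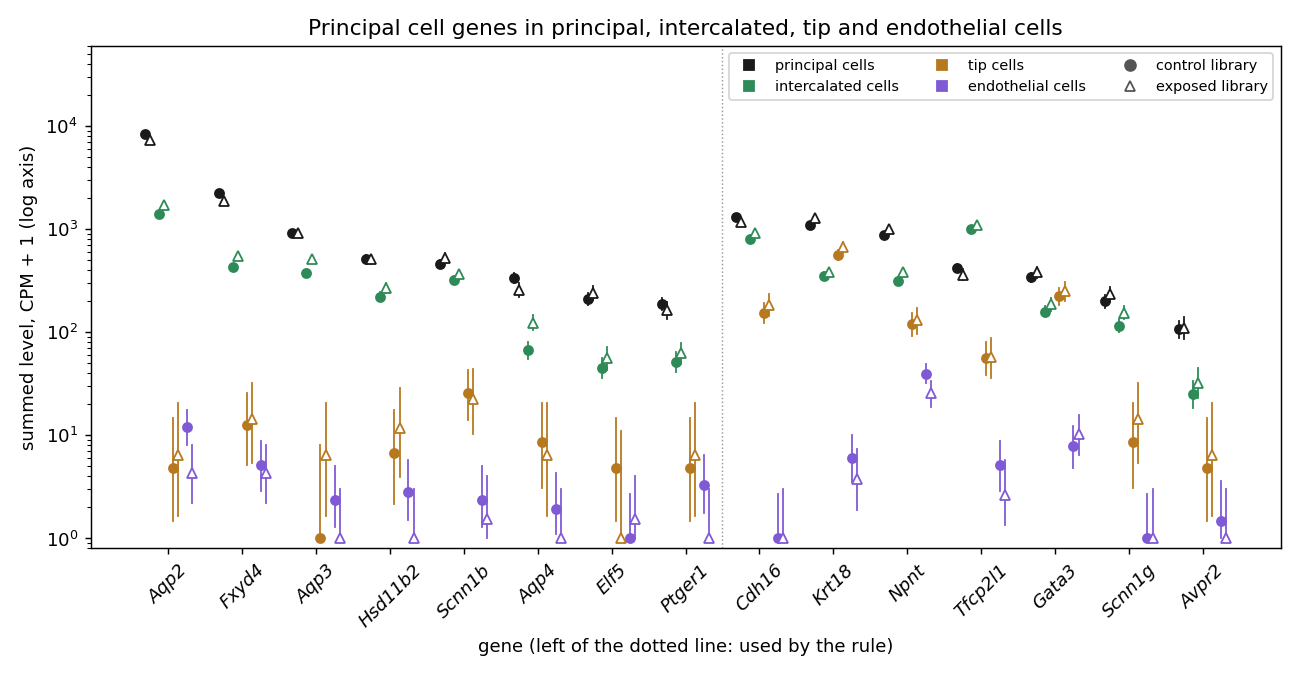
Summed level of 15 principal cell genes (CPM + 1, log axis) in principal, intercalated, tip and endothelial cells. Filled circles are the control and open triangles the exposed library, and bars are 95% Poisson intervals. Aqp2 is at 8463 and 7409.8 CPM in principal cells and at 1399 and 1720.4 in intercalated cells, while Tfcp2l1 is highest in intercalated cells.

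The 15 genes that stood highest in principal cells over all other cells, rule genes left out, describe the same population. Among them were Spink8, Scnn1g, Avpr2, Trim61, Stc1, Rnf186, Btc, Rhcg, Tmem45b, Crisp1, Mal2, Krt18, Atp12a and Plet1. Spink8, a serine protease inhibitor, stood at 668 CPM in control and 1000.1 CPM in exposed principal cells against 341 and 321 CPM in intercalated cells and 24.8 and 18.9 CPM in all others pooled. Its log2 ratio of exposed over control was 0.57, and -0.29 without the 5 cells richest in it in each library. Crisp1, a cysteine-rich secretory protein, was nearly restricted to them, at 97.8 and 72.8 CPM against 0.681 and 0.145 CPM elsewhere and 3.54 and 0 CPM in intercalated cells. Rhcg, an ammonia channel, stood at 363 and 386 CPM but higher in intercalated cells (468 and 544 CPM). Atp12a, the nongastric proton-potassium pump, stood at 128 and 156 CPM in principal and 73.2 and 114 CPM in intercalated cells.

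Principal cells were divided by S100g, which codes for the calcium-binding protein calbindin-D9k. Its UMIs varied more among them than those of any other of the 1255 genes compared: variance over mean was 96.7 in control and 119 in exposed cells thinned to 2000 UMIs, against medians of 1.10 and 1.13 over these genes. The other genes among the 15 most variable were Aqp2 itself (12.02 and 12.3), 7 mitochondrial genes, Spp1, Malat1, Spink8, Hspa1a, Tmsb4x and Hspb1. No S100g UMI was found in 148 control and 87 exposed cells, and 100 or more in 22 and 10. Taking 10 UMIs as a dividing line, set after the values were seen, 42 control cells (17.6%, 13.02 to 23.1) and 21 exposed cells (17.9%, 11.5 to 26.1) lay above it. Few cells lay near the line: 4 and 2 cells had 5 to 9 UMIs, and 4 and 3 had 10 to 19.

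The S100g-high cells carried less of several genes of the rule. The median cell held 6.5 Aqp2 UMIs in control and 5 in exposed cells, against 29.5 and 39.5 in the S100g-low cells. Summed Aqp2 stood at 2174 against 10179 CPM in the control and at 2045 against 8553 CPM in the exposed library. Fxyd4 was detected in 17 of 42 and 9 of 21 S100g-high cells but in 189 of 196 and 92 of 96 S100g-low cells. Aqp4 stood at 36.2 against 417 CPM in the control and 17.6 against 309.9 CPM in the exposed library. Aqp3 differed little, at 705 against 976 CPM and 828 against 929.7 CPM.

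Hsd11b2 and Scnn1b, sodium handling genes that the rule also uses, ran the other way. Cells that lacked Fxyd4 and Aqp4 had to pass the rule through its other supporting genes, Hsd11b2 and Scnn1b among them. How far the rule itself sets their level was not tested. Fxyd4, the regulator of the sodium pump, was lower in S100g-high cells, at 420 against 2725 CPM and 467 against 2196 CPM. Hsd11b2 stood at 809 CPM in S100g-high against 435 CPM in S100g-low control cells, and at 855 against 436 CPM in exposed cells. Scnn1b stood at 673 against 406 CPM in the control and 890.2 against 449 CPM in the exposed library. Scnn1g, which the rule does not use, differed less, at 262 against 181 CPM and 238 against 231 CPM. The vasopressin receptor Avpr2 was lower in S100g-high cells, at 27.1 against 128 CPM and 70.5 against 118 CPM, from 6 and 8 UMIs.

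S100g-high cells also held genes known from the connecting tubule, the segment that joins the nephron to the duct. Calb1, which codes for calbindin-D28k, stood at 1198 against 134 CPM in the control and 1093 against 131 CPM in the exposed library, and a UMI of it was found in 28 of 42 and 14 of 21 S100g-high cells. Tmem52b, a distal tubule gene, was found in 29 and 18 of them but in 2 of 196 and 7 of 96 S100g-low cells. Kl, the gene of the fibroblast growth factor co-receptor klotho, stood at 280.2 against 29.6 CPM and at 449 against 28.2 CPM. Slc12a3, the sodium-chloride cotransporter of the distal convoluted tubule, was found in 3 control and 0 exposed S100g-high cells. Klk1, a kallikrein of the connecting tubule, was likewise found in 3 and 0. Connecting tubule genes were not particular to principal cells. The 8 listed genes of the connecting and distal convoluted tubule summed to 7934 and 8675 CPM in all principal cells. In cells gated as intercalated they summed to 16622 and 12860 CPM.

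Several homeobox genes divided the cells in the same way in both libraries. Hoxa10 was detected in 25 of 42 control and 12 of 21 exposed S100g-high cells, and in 5 of 196 and 1 of 96 S100g-low cells. Hoxd11 was detected in 17 and 7 S100g-high cells against 3 and 2 S100g-low cells. Hoxa9 stood at 145 against 7.40 CPM and 203 against 16.9 CPM, and Emx1 at 154 against 8.63 CPM and 167 against 5.63 CPM. Hoxb7, long used to mark the ureteric lineage, was lower in S100g-high cells at 36.2 against 97.4 CPM and 61.7 against 95.8 CPM, from 8 and 7 UMIs. Hoxa10 and Hoxd11 are known as genes of the metanephric mesenchyme, from which nephrons form.

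Genes known from the medullary duct, with others, were lower in S100g-high cells. Crisp1 had 0 UMIs in the S100g-high cells of both libraries and 101 and 47 UMIs in the S100g-low cells. The transcription factor gene Tbx3 had 1 and 0 UMIs against 117 and 68. Cryab, a small heat shock protein of the medulla, had 1 and 3 UMIs against 255 and 328. Wnt7b, the ligand that sets the orientation of divisions in the medullary duct, had 1 and 1 UMIs against 64 and 36. Akr1b3, the aldose reductase that makes sorbitol as an osmolyte, stood at 104 against 593 CPM and 88.1 against 855 CPM.

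The division was set on S100g in these same cells, so these differences are a description of how the gated cells vary. Median UMI totals of S100g-high and S100g-low cells were 4390.5 and 3621 in control and 4911 and 4957.5 in exposed cells. Median mitochondrial shares were 12.8% and 15.7% in control, 14.5% and 10.3% in exposed cells, so their order differed between the libraries. The gate therefore holds, beside cells rich in Aqp2 and Fxyd4, cells with less of both that carry genes of the connecting tubule.

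**Figure D2:**
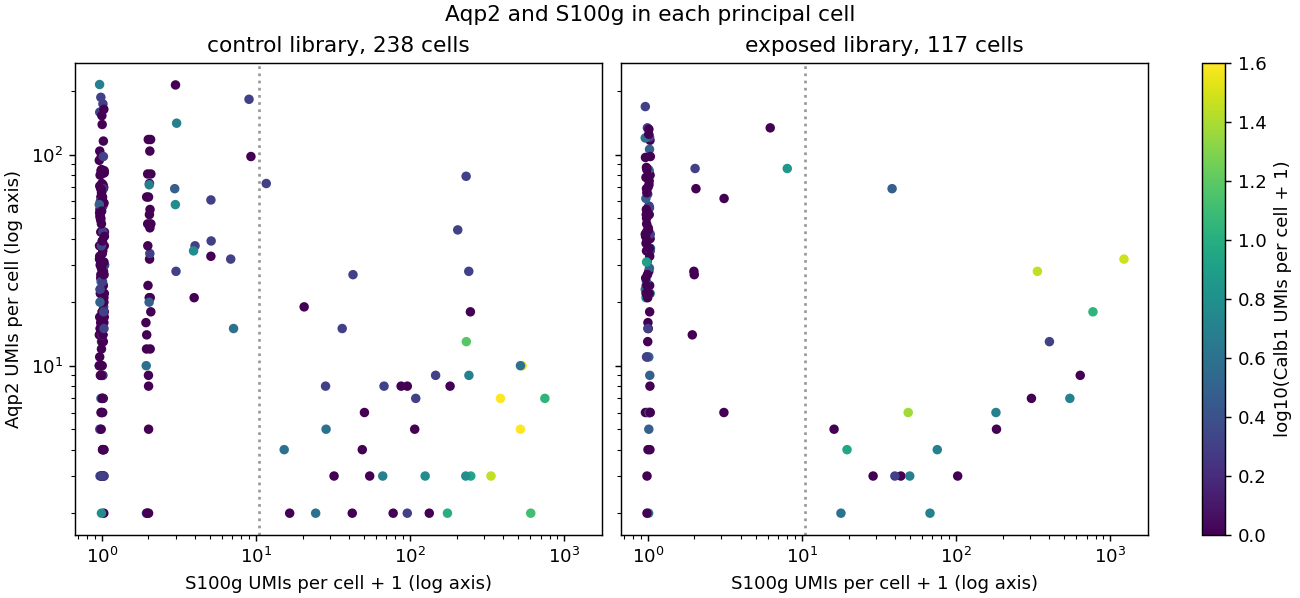
Aqp2 UMIs against S100g UMIs + 1 (both log axes) in each of 238 control and 117 exposed principal cells, coloured by log10(Calb1 UMIs + 1), with points moved slightly sideways so that cells at the same value can be seen. The dotted line separates the 42 and 21 cells with 10 or more S100g UMIs, whose median Aqp2 count is 6.5 and 5, from the rest.

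Across single cells thinned to 2000 UMIs (197 control and 107 exposed), Fxyd4 followed Aqp2 most closely, with Spearman's rho of 0.694 in control and 0.605 in exposed cells. Tmsb4x, an actin-binding peptide, had 0.482 and 0.513, Aqp4 0.485 and 0.437, and Akr1b3 0.431 and 0.388. The lowest values were those of S100g (-0.411 and -0.395), Ly6a (-0.438 and -0.367) and Calb1 (-0.321 and -0.374). The points are cells of 1 library that share its depth and its free RNA, so these are descriptions. Aqp2, Fxyd4 and Aqp4 also took part in choosing the cells. S100g-high and S100g-low cells were pooled, so the values in part restate that division.

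Few principal cells held several UMIs of cell cycle genes. At 2000 UMIs per cell, 3 or more UMIs of 25 G2/M genes were found in 16 of 197 control cells (8.12%, 4.71 to 12.9) and 8 of 107 exposed cells (7.48%, 3.28 to 14.2). Without thinning the shares were 13.9% and 14.5%. In tip cells, from which the duct grows, the thinned shares were 41.3% and 35.1%, and the intervals (31.1 to 52.1 and 22.9 to 48.9) do not overlap those of principal cells. For 23 S phase genes the thinned shares were 15.2% and 11.2% in principal and 53.3% and 57.9% in tip cells, while the unthinned shares in principal cells were 24.4% and 35.0%. Intercalated cells were lower than principal cells in both libraries, at 3.78% and 3.01% for G2/M genes, with overlapping intervals.

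The second question was how the exposed library differed from the control within principal cells. Ratios are of exposed over control CPM, and log2 ratios have 10 CPM added to both sides, which understates the change of low genes. Of the 4834 genes holding 50 or more UMIs when the libraries are added together, called measured here, 201 (4.16%) stood 1.5-fold or more higher in exposed cells on this scale and 93 (1.92%) stood as much lower, or 294 (6.08%) either way. The log2 ratio was above 0 for 57.2% and below 0 for 42.8% of these genes, and its median was 0.05. The split between higher and lower depends on the scaling: with the mitochondrial genes left out of the total it was 153 higher and 154 lower, and with the median set to 0 it was 157 and 129. These shares are what each gene list below is read against.

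The authors' own clustering, numbered within each library, placed the principal cells differently. The cluster that also held most tip cells took 212 control (89.1%) and 62 exposed principal cells (53.0%). The cluster that held most intercalated cells took 17 (7.14%) and 36 (30.8%), and a cluster where principal cells had a median of 61.4% and 43.2% mitochondrial UMIs took 5 (2.10%) and 17 (14.5%). Each comparison was also repeated on the 212 and 62 cells alone, an alternative chosen after seeing the data. This subset keeps 89.1% of control but 53.0% of exposed principal cells, so the 2 sides were not selected alike. Its median mitochondrial share was 14.5% for control and 7.93% for exposed cells, against 15.05% and 10.49% among all principal cells. How far this unlike selection shapes the values from the subset, here and below, was not tested. In the subset 286 of 3867 measured genes were higher and 191 lower past 1.5-fold. Early genes and heat shock chaperones were higher there too, at medians of 1.48 (20 of 20) and 0.76 (11 of 11), and mitochondrially encoded genes lower at -0.80 (12 of 12).

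The genes that define principal cells were close between libraries when all principal cells were summed. Of the 8 genes of the rule, which share the values that chose the cells, none passed 1.5-fold. Aqp2 had a ratio of 0.876 (0.845 to 0.907), Fxyd4 0.848 (0.791 to 0.909) and Aqp4 0.771 (0.637 to 0.931), from 335 and 259 CPM. Aqp3 had a ratio of 0.993 (0.894 to 1.10) and Hsd11b2 0.988 (0.859 to 1.14). Among the 212 and 62 cells of the cluster named above, 7 of the 8 were lower, with a median log2 ratio of -0.53, where Aqp2 stood at -0.66 and Hsd11b2 at -0.58. Of the 15 measured markers that the rule did not use, 12 were higher and 3 lower, 2 past 1.5-fold. These 2 were Kcne1, a potassium channel subunit (21.3 and 60.4 CPM, 22 and 39 UMIs, ratio 2.83, 1.64 to 5.02), and Stc1, the hormone stanniocalcin (178 and 272 CPM, ratio 1.53, 1.24 to 1.89). The median of the unused markers was 0.19, but in thinned cells 6 of the 15 were higher and the median was -0.02. The log2 ratio of Kcne1 was 1.17 in all cells and -0.18 in the cells of that cluster.

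Genes that carry the vasopressin signal to the water channel differed little as a group. Of 23 measured genes 12 were higher and 11 lower, and the median log2 ratio was 0.01. Avpr2 had a ratio of 1.03 (0.754 to 1.40), and the adenylyl cyclase gene Adcy6 1.06 (0.678 to 1.63). The 2 past 1.5-fold, both from few UMIs, were Prkacb, a catalytic subunit of protein kinase A (31.0 and 55.7 CPM, ratio 1.80, 1.09 to 2.99), and Rab11fip2, an adaptor of recycling endosomes (51.3 and 88.2 CPM, ratio 1.72, 1.16 to 2.55). Mal, a membrane protein of apical sorting, stood at 702 and 944 CPM (ratio 1.34). Vamp8, a vesicle fusion protein, stood at 278 and 226 CPM (ratio 0.813, 0.662 to 0.996).

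The sodium channel and aldosterone pathway was as even. Of 18 measured genes 9 were higher and 9 lower, with none past 1.5-fold and a median of -0.0048, and in the cells of the cluster named above 5 were higher and 12 lower, with a median of -0.20. Scnn1b stood at 463 and 526 CPM (ratio 1.14, 0.986 to 1.31) and Scnn1g at 199 and 232 CPM (ratio 1.17, 0.941 to 1.45). The log2 ratio of Scnn1g was 0.22, and -0.02 in thinned cells. Sgk1, the aldosterone-induced kinase, stood at 289.6 and 291 CPM (ratio 1.00, 0.833 to 1.21). The sodium pump subunit Atp1b1 had a ratio of 1.10 (1.02 to 1.19).

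Of 7 measured potassium and chloride channel genes, 2 passed 1.5-fold, both higher: Kcne1, given above, and Kcnj10, a basolateral potassium channel (22.3 and 49.5 CPM, 23 and 32 UMIs, ratio 2.22, 1.26 to 3.98). In the 212 and 62 cells of 1 authors' cluster the log2 ratio of Kcnj10 was 0.49, under 1.5-fold, as was that of Prkacb at 0.48. Kcnk1 stood at 146 and 144 CPM. In the prostaglandin pathway, whose product PGE2 opposes vasopressin, 1 of 7 measured genes passed 1.5-fold. This was Ptgs1, the gene of cyclooxygenase-1, at 159.8 CPM in the control and 99.1 CPM in the exposed library (ratio 0.620, 0.457 to 0.832). In thinned cells its log2 ratio was -0.09, against -0.64 in all cells. The prostaglandin E synthase Ptges had a ratio of 0.821 (0.613 to 1.09).

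Of 23 measured transcription factors of the duct, 14 were higher and 9 lower, and 3 passed 1.5-fold, all higher. Emx2, a homeobox gene required for the ureteric bud, stood at 55.2 and 99.1 CPM (ratio 1.79, 1.24 to 2.61). Elf3, an epithelial factor of the ETS family, stood at 81.4 and 136 CPM (ratio 1.67, 1.23 to 2.29), and Foxp1 at 37.8 and 69.7 CPM (ratio 1.84, 1.17 to 2.91). Gata3 had a ratio of 1.12 (0.952 to 1.33), which lay below 1 in thinned cells (log2 ratio -0.11), and Tfcp2l1 0.866 (0.735 to 1.02). Of 8 measured Notch pathway genes 1 passed 1.5-fold. This was Hes1, a transcriptional repressor that Notch and other signals induce, at 401 and 848 CPM (ratio 2.12, 1.86 to 2.41). A UMI of Hes1 was found in 47.5% of control and 66.7% of exposed cells, and in 39.6% and 48.6% of thinned cells.

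Genes of the ureteric trunk and medullary duct stood higher in part. Of 11 measured genes 7 were higher and 4 lower, and 3 passed 1.5-fold, all higher. Cryab stood at 248 and 512 CPM (ratio 2.07, 1.75 to 2.44), and 5 cells held 46.8% of its exposed UMIs. Wnt4 stood at 124 and 229 CPM (ratio 1.85, 1.45 to 2.36) and Lgals3, the gene of galectin-3, at 285 and 478 CPM (ratio 1.68, 1.43 to 1.98). Aqp4, also on this list, was lower as given above, and Wnt7b had a ratio of 0.910 (0.591 to 1.38). The 3 genes remained higher without the 5 cells richest in each, at log2 ratios of 0.72 for Cryab, 0.40 for Wnt4 and 0.64 for Lgals3. Of 4 measured tip genes only Gfra1, the GDNF co-receptor, passed 1.5-fold, at 68.8 and 108 CPM (ratio 1.58, 1.12 to 2.22).

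Of the 24 gene lists, the highest median was that of the immediate early genes, the transcription factors and feedback regulators that cells switch on within minutes of a stimulus. Of 20 measured genes 19 were higher in exposed principal cells and 17 passed 1.5-fold, against 4.16% of all measured genes. Fos stood at 887 CPM in the control and 2169 CPM in the exposed library (ratio 2.44, 2.25 to 2.66). Its median per cell was 1 and 6 UMIs without thinning, in cells with a median of 3758 and 4930 UMIs. A UMI of Fos was found in 52.8% and 64.5% of thinned cells. Jun stood at 1168 and 2315 CPM (ratio 1.98, 1.84 to 2.14), Junb at 539.5 and 1209 CPM and Ier2 at 453 and 1089.9 CPM (ratio 2.40, 2.14 to 2.71). Egr1 stood at 603 and 1136 CPM (ratio 1.89, 1.69 to 2.10). Klf4 had the highest ratio, 3.40 (2.05 to 5.77), from 24 and 51 UMIs. The other three did not pass: Fosl2 had a ratio of 0.970 (0.671 to 1.39), Ier3 of 1.18 (0.901 to 1.54), and Klf2, low at 28.1 and 43.4 CPM, of 1.54 before 10 CPM were added.

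In cells thinned to 2000 UMIs, the summed count of the 22 listed genes had a median of 8 in control and 23 in exposed cells. Cells with few of these UMIs were present in both libraries: the lower quartile was 3 in both, and the upper quartile was 21 and 48. The median log2 ratio of the list was 1.01, and it ran from 0.81 to 1.48 over the alternatives. In S100g-low cells 18 of 19 measured genes were higher, with a median of 1.10, and in S100g-high cells 6 of 9, with a median of 0.46. The S100g-high values, here and below, rest on 42 control and 21 exposed cells. The share of all measured genes above 0 is not given for either set, so these counts have no background of their own. Fos alone stood at 952 and 2439.7 CPM in S100g-low and at 651 and 899 CPM in S100g-high cells.

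The same genes were compared in the other gates, with no test of the difference between gates. In tip cells 15 of 18 were higher, 3 of them past 1.5-fold, with a median log2 ratio of 0.25. In intercalated cells 14 of 18 were higher, 4 past 1.5-fold, with a median of 0.34. In endothelial cells 6 of 20 were higher, with a median of -0.18. In all cells outside the principal gate together 18 of 22 were higher, none past 1.5-fold, with a median of 0.20. Over all genes measured in these 4 groups of cells, in the same order, 53.2%, 61.3%, 56.7% and 65.6% were above 0. Higher past 1.5-fold were 75 of 2759, 109 of 6391, 41 of 6817 and 6 of 8926. Counts of list genes in these cells, here and below, are read against these shares. The thinned summed count in the control was already 20 in the median tip cell and 3 in the median intercalated cell, and the exposed values were 25 and 4. The median share of mitochondrial UMIs in principal cells moved with the group (15.05% and 10.49%). Its part in the difference was not tested. Among the 175 and 96 cells at or under 25%, where the shares were 12.8% and 9.18%, 19 of 20 early genes were higher and the median was 0.98. With 1 library per group, any difference in dissociation, freezing or other handling of a library cannot be told apart from the group. This holds for the early genes and for the chaperones below.

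**Figure D3:**
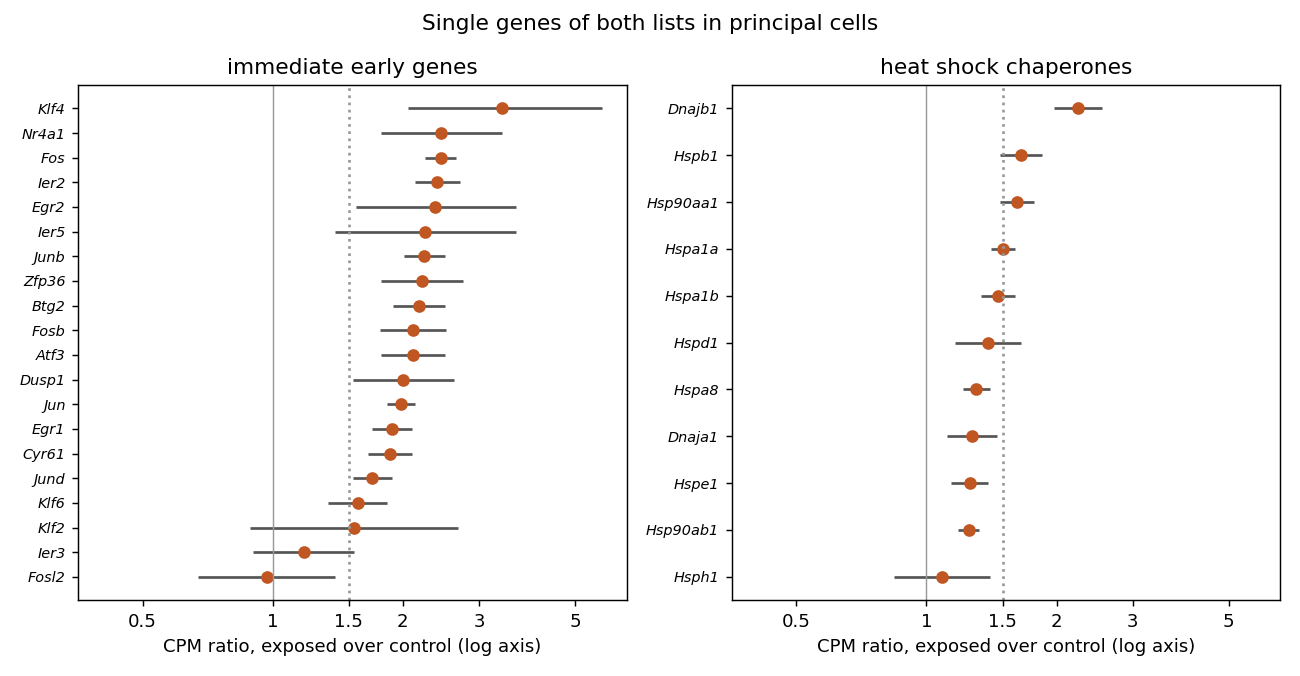
Ratio of exposed over control CPM in principal cells (log axis) for 20 immediate early genes and 11 heat shock chaperones, with 95% exact conditional binomial intervals that cover counting error only. The solid line marks equal levels and the dotted line 1.5-fold. All but Fosl2 lie right of the solid line.

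Heat shock chaperones stood higher as well. All 11 measured genes were above 0, with a median log2 ratio of 0.46, and 4 passed 1.5-fold. Dnajb1, an Hsp70 co-chaperone, stood at 403 and 901 CPM (ratio 2.24, 1.97 to 2.54). Hspb1, the small heat shock protein Hsp27, stood at 591 and 978 CPM (ratio 1.66, 1.48 to 1.85), Hsp90aa1 at 950.3 and 1540.5 CPM and the inducible Hsp70 gene Hspa1a at 1901 and 2864 CPM (ratio 1.51, 1.41 to 1.61). The lowest was Hsph1 at 151 and 164 CPM (ratio 1.09, 0.840 to 1.40). In intercalated cells 10 of 13 were higher, with a median of 0.21, in tip cells 5 of 11, in endothelial cells 3 of 12, and in all cells outside the principal gate 11 of 14, with a median of 0.18.

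Mitochondrially encoded genes ran the other way. All 13 were lower in exposed principal cells, with a median log2 ratio of -0.36, and 1 passed 1.5-fold. This was mt-Nd3, a subunit of complex I, at 906 and 477 CPM (ratio 0.526, 0.461 to 0.599). In the other cells of the kidney mt-Nd3 had a log2 ratio of -0.96, against -0.91 here. The list was lower elsewhere too: 12 of 13 genes in intercalated, 10 of 12 in tip and 13 of 13 in endothelial cells, with medians of -0.16, -0.23 and -0.61. In principal cells under 25% mitochondrial UMIs, 9 of 12 were lower, with a median of -0.30, and in S100g-high cells 5 of 12, with a median of 0.10. Nuclear-encoded genes of the respiratory chain were nearer to even: 30 of 42 were lower, none past 1.5-fold, with a median of -0.10. Uqcr10, a subunit of complex III, stood at 713 and 548 CPM (ratio 0.769, 0.675 to 0.874).

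**Figure D4:**
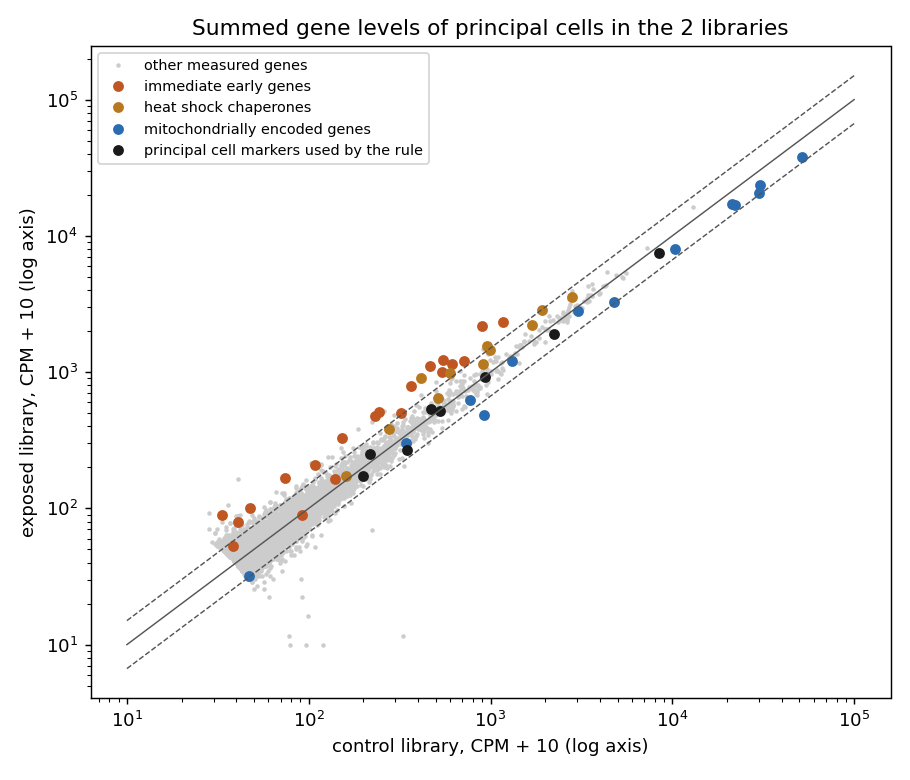
Level of each of 4834 measured genes in control and exposed principal cells (CPM + 10, log axes). The solid line marks equal levels and the dashed lines 1.5-fold. Of the 20 immediate early genes 17 lie past the upper dashed line and Fosl2, Ier3 and Klf2 below it, and mitochondrially encoded genes below the solid line.

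Metabolic genes differed by small amounts. Of 13 measured glycolysis genes 12 were higher, with a median log2 ratio of 0.13 and none past 1.5-fold, but with the mitochondrial genes out of the total 8 of 13 were higher and the median was 0.05, and in the 212 and 62 cells of 1 authors' cluster 6 of 12 were higher. Ldhb, a lactate dehydrogenase subunit, stood at 1532 and 1879.5 CPM (ratio 1.23, 1.14 to 1.32), and the glucose transporter Slc2a1 at 60.1 and 74.3 CPM (ratio 1.24, 0.831 to 1.83). Of 8 sterol and lipid genes 2 passed 1.5-fold, Msmo1 (38.7 and 79.0 CPM, ratio 2.04, 1.32 to 3.16) and Fdps (40.7 and 69.7 CPM, ratio 1.71, 1.10 to 2.67), both of sterol synthesis. Of 14 insulin and IGF pathway genes only Pik3r1, a subunit of PI3 kinase, passed 1.5-fold (43.6 and 75.9 CPM, ratio 1.74, 1.14 to 2.67).

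Osmolyte genes gave a value that a few cells decide. Akr1b3 stood at 488 and 719.9 CPM (ratio 1.47, 1.30 to 1.68), with a log2 ratio of 0.55, but without the 5 cells richest in it in each library the log2 ratio was -0.20. Nfat5, the transcription factor that induces osmolyte genes, stood at 417 and 342 CPM (ratio 0.821, 0.695 to 0.968). The amino acid transporter Slc38a2 stood at 236 and 345 CPM (ratio 1.46, 1.21 to 1.76). No gene of this list of 7 measured passed 1.5-fold.

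Of 21 measured genes of epithelial junctions and keratins 13 were higher and 8 lower, with none past 1.5-fold. Krt8 stood at 634 and 855 CPM (ratio 1.35, 1.20 to 1.51) and the adhesion molecule Cdh1 at 206 and 153 CPM (ratio 0.743, 0.579 to 0.947). Of 7 measured cilium and cystic disease genes 5 were higher, none past 1.5-fold on the log2 scale used, among them Bicc1 at 196 and 288 CPM (ratio 1.47, 1.20 to 1.81). Interferon and MHC class I genes were 4 higher and 3 lower of 7, with a median of 0.04, which was -0.03 with the mitochondrial genes out of the total.

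**Figure D5:**
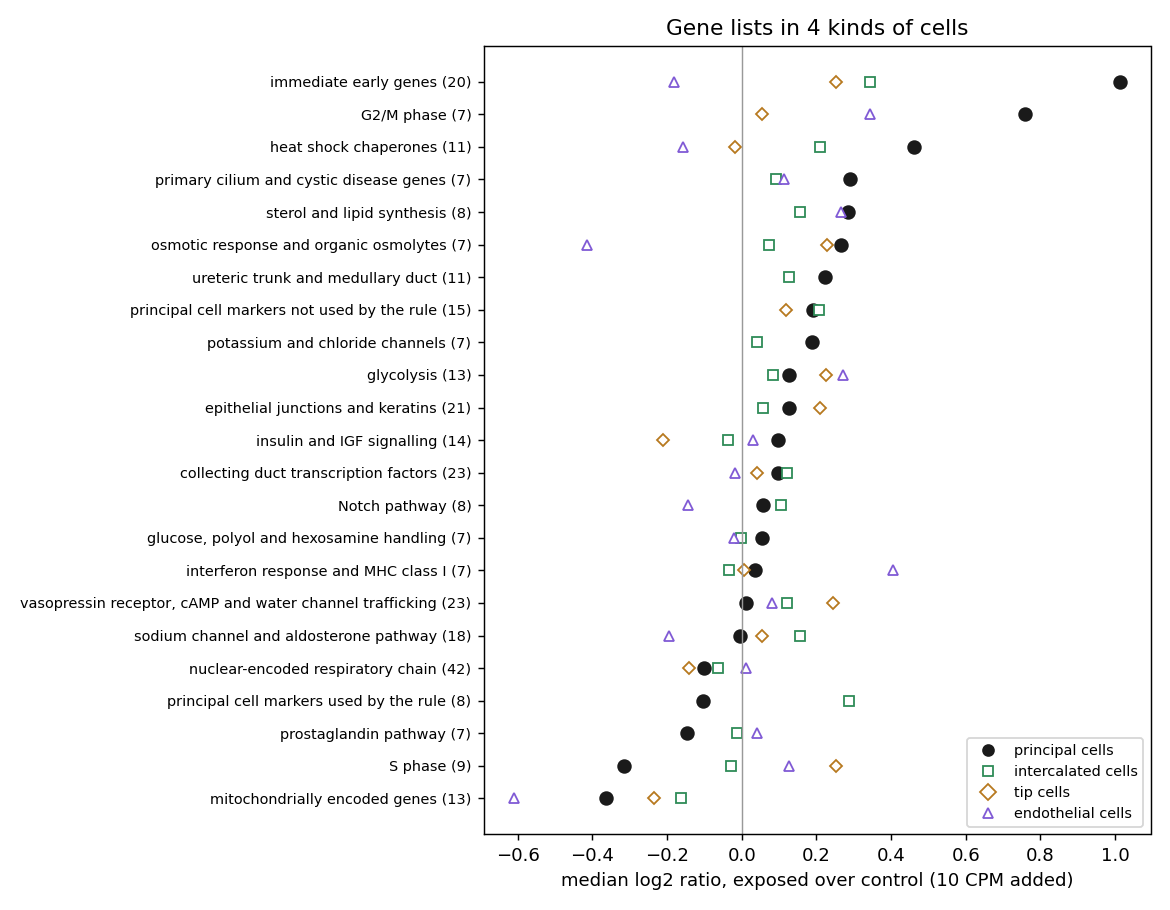
Median log2 ratio of exposed over control for gene lists with at least 5 measured genes, in principal cells (filled circles, number of measured genes in brackets) and in intercalated, tip and endothelial cells. Immediate early genes lie at 1.01 in principal cells and at 0.34, 0.25 and -0.18 in the others.

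By the rule for single genes, the 10 highest were Ube2c, Fos, Ier2, Sfn, Nr4a1, Junb, Dnajb1, Btg2, Zfp36 and Hes1. Besides the early genes and Hes1, Sfn, the epithelial 14-3-3 sigma protein, stood at 62.0 and 155 CPM (ratio 2.50, 1.81 to 3.47) and was found in 18.9% of control and 37.6% of exposed cells, or 10.7% and 21.5% of thinned cells. Ube2c, a mitotic ubiquitin-conjugating enzyme, stood at 31.0 and 153 CPM (ratio 4.94, 3.29 to 7.62), but its UMIs came from 11 control and 10 exposed cells. Its log2 ratio was 1.99, and 0.44 without the 5 cells richest in it in each library. The G2/M list as a whole had 6 of 7 measured genes higher and 4 past 1.5-fold, while the share of cells with 3 or more G2/M UMIs was 8.12% and 7.48%. The S phase list had 8 of 9 lower, with a median of -0.32, but without the doublet filter 6 of 12 were higher and 6 lower and the median was 0.03. Without the S100g-high cells 3 of its genes were higher and 4 lower. Among the lower genes was Mcm7, a helicase subunit (46.5 and 18.6 CPM, 48 and 12 UMIs, ratio 0.400, 0.193 to 0.764).

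Among the 10 lowest genes were Hbb-bs, Sprr2f, 2810417H13Rik, mt-Nd3, 4932438A13Rik, Snrpb2, Spaca6, Slc44a2 and Lsm3. Hbb-bs, the beta globin of red cells, had 329 UMIs in control and 1 in exposed cells, and 324 of the 329 were in 1 cell. Sprr2f, a small proline-rich protein of epithelia, stood at 212 and 58.8 CPM (ratio 0.277, 0.191 to 0.393). It was found in 34 control cells (14.3%) and 8 exposed cells (6.84%), or in 11.7% and 4.67% of thinned cells. It stood at 11.8 and 15.3 CPM in intercalated cells and at 1.13 and 0.653 CPM in all other cells pooled. Its log2 ratio was -1.69, and -3.08 without the 5 cells richest in it. 2810417H13Rik, a replication-linked gene, stood at 98.8 and 41.8 CPM (ratio 0.423, 0.266 to 0.652) from 23 and 10 cells.

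Markers of 8 groups of other cells were few in most principal cells. The summed UMIs of 8 marker lists (loop of Henle, proximal tubule, nephron progenitor, podocyte, stroma, endothelium, macrophage and neutrophil, and red cell) had a median of 1 per cell in both libraries. They reached 10 or more in 11 control and 6 exposed cells. The intercalated, connecting tubule and urothelial lists were not among these 8, and they were not as few. The connecting and distal convoluted tubule list summed to 7934 and 8675 CPM in principal cells. The 3 urothelial genes listed summed to 172 and 142 CPM, against 89 and 50 CPM in all cells outside the principal gate. For the 10 loop of Henle genes the summed level was 213 and 396 CPM, for 11 proximal tubule genes 261 and 38.7 CPM, for 8 podocyte genes 79.4 and 209 CPM and for 5 red cell genes 544 and 3.10 CPM. For the endothelial list it was 49.4 and 18.6 CPM, with Kdr, Emcn and Flt1 at 0 in both libraries. Among intercalated markers, the anion exchangers Slc4a1, Slc26a4 and Slc4a9 were at 0 in both libraries, beside the 2 genes the rule excludes. The intercalated list as a whole was not absent: its 18 genes summed to 1468 and 1864 CPM in principal cells. They summed to 7564 and 8792 CPM in intercalated cells and to 490 and 476 CPM in all cells outside the principal gate. Rhcg (363 and 386 CPM) and Spink8 (668 and 1000 CPM in principal cells) are on this list. The loop gene Slc12a1 stood at 26.2 and 96.0 CPM, and its log2 ratio was 1.55, but it was at 0 in both libraries without the 5 cells richest in it in each, and its log2 ratio was -1.02 in the 212 and 62 cells of 1 authors' cluster. The part of these cells in the comparison was not tested. Without those that held 10 or more such UMIs, 184 genes were higher and 94 lower of those measured.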

How the data were processed

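Single-cell libraries of whole kidney were made with the Chromium 3' method, after trypsin dissociation and freezing, per the labels' protocols. Cell Ranger 2.2.0 and genome build mm10 are named in the submitters' processing notes. The authors deposited raw UMI counts per gene and cell, and a table of cells that gives, per the file headers, the percent of mitochondrial UMIs, a hybrid doublet score and a cluster number. How cells and genes were chosen for deposit is not stated in these sources. The authors' doublet score was the only doublet treatment. The deposited log-normalised values were not used.

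All deposited cells entered. Lower-case gene names were matched to GENCODE M21 symbols (8606 of 8930 shared genes) and RefSeq (307 more). UMIs were summed per gene over the principal cells of a library and scaled to CPM with Python 3.11.15, numpy 2.4.6, scipy 1.17.1 and pandas 2.3.3. A gene was measured at 50 or more UMIs over both libraries. Intervals at 95% are Clopper-Pearson for shares, Newcombe for their difference, Poisson for levels and exact conditional binomial for ratios. They treat each UMI as independent and leave out spread between cells. Thinned values use 2000 UMIs drawn per cell, leaving out 41 control and 10 exposed shallower principal cells. Calculations were checked on simulated counts with known ratios.

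Named genes are the markers; the 10 highest and 10 lowest by log2 ratio (at least 100 UMIs, interval without 1, same direction in thinned cells and without the 5 richest cells); the 15 highest over other cells; the 15 most variable; and up to 4 per list. Genes of the S100g division were picked after their values were seen. Some genes that these rules name are not reported here. The members and lists were chosen with earlier results of these data known.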

Additional observations from a re-analysis of the deposited data

How the results depend on the processing

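The share of principal cells kept its direction under every alternative to its rule that was run: the difference ran from -0.474 percentage points without the doublet filter to -0.325 with Aqp2 at 1 or more UMIs or without cells over 25% mitochondrial UMIs. The numbers of genes past 1.5-fold moved most. Against 201 higher and 93 lower they were 316 and 173 with 1 CPM added, 52 and 14 with 50 CPM added, 482 and 387 in cells thinned to 2000 UMIs, and 428 and 349 with no minimum of UMIs. With mitochondrial genes out of the total 154 were lower, and with each cell weighted equally 144. The number of lists with a median above 0 was 18 of 24, and 14 to 19 over the alternatives. Of the alternatives chosen after seeing the data, 192 genes were higher and 110 lower without the S100g-high cells, and 286 and 191 in the authors' cluster that holds most principal cells. Of the named genes past 1.5-fold, these turned direction. Without the 5 richest cells the log2 ratio of Cenpf was -0.31, of Cenpa -0.39 and of Cldn10 -0.14. Without cells rich in other types' markers it was -0.28 for Slc12a1, -0.037 for Cldn10 and 0.24 for Hba-a2. In that cluster it was -0.18 for Kcne1, -1.02 for Slc12a1, -1.47 for Cldn10 and -2.04 for Umod. The cause was not tested. No paired analysis was possible because each group has 1 library. Depth limits genes of few UMIs.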
